A study of Mus musculus with 10 samples.

Results

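The genes described here encode 9 scaffold proteins of the postsynaptic density: *Shank1*, *Shank2*, *Shank3*, *Dlg1*, *Dlg2*, *Dlg3*, *Dlg4*, *Homer1* and *Dlgap1*. They were chosen by name from the 24453 genes of the count table, and each was found there under its symbol. The libraries came from layer 5 intratelencephalic projection neurons (IT-PNs) of the mouse primary motor cortex (M1), sorted by FACS from 5 male mice. Each animal gave 1 *Fezf2+ve* and 1 *Fezf2−ve* library, so the types were compared within animals. Both types came from mice hemizygous for the *Fezf2-Gfp* reporter, a transgene of the line (Zfp312-EGFP)CO61GsatMmnc, kept on a Swiss Webster background. *Fezf2+ve* cells were sorted on GFP together with a retrograde tracer, cholera toxin subunit B (CTB) coupled to a fluorophore, and *Fezf2−ve* cells on the tracer alone. Fewer *Fezf2−ve* than *Fezf2+ve* cells were collected on average, and the low RNA input was amplified by PCR and by in vitro transcription. The tracer was injected into the left M1 at postnatal day 23 to 25, and cells were taken from the right M1 at postnatal day 28 to 32. GFP reports the activity of the transgene, and a *Fezf2−ve* cell is one in which no GFP was seen. Reads on genes numbered 118134, 107643, 118069, 151591 and 203379 in *Fezf2+ve* libraries 1 to 5. They numbered 167916, 89138, 168711, 211368 and 217738 in the *Fezf2−ve* libraries.

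The postsynaptic density is the protein layer beneath the membrane of excitatory synapses, which are mostly found on dendritic spines. DLG proteins lie closest to the membrane and bind glutamate receptors through PDZ domains, DLGAP proteins bind to them from below, and SHANK proteins join the DLGAP layer to HOMER and to actin. Cortical projection neurons carry many spines, so these genes are among those that such neurons are known to transcribe.

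The 9 genes had 4432 reads in the 10 libraries, and most of them lay on *Shank1* and *Dlg2*. *Shank1* had 2500 reads, or 56.4% of the total, and *Dlg2* had 1681, or 37.9%. Without *Fezf2+ve* library 5 these shares are 79.2% and 12.9%. In *Fezf2−ve* libraries 2 and 5 both genes together had 29 of 78 and 24 of 57 scaffold reads. *Dlgap1* had 134 reads, *Dlg1* 59, *Shank2* 38, *Homer1* 11, *Shank3* 6, *Dlg4* 2 and *Dlg3* 1. A gene was tested if it had at least 10 CPM (reads scaled to equal library totals) in at least 2 libraries, which 7409 genes did. *Shank1*, *Shank2*, *Dlg1*, *Dlg2* and *Dlgap1* were tested, and *Shank3*, *Dlg3*, *Dlg4* and *Homer1* were not. At this depth 3 reads correspond to between 13.8 and 33.7 CPM, a floor that covers counting error only because PCR reads are not independent molecules.

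**Figure D1:**
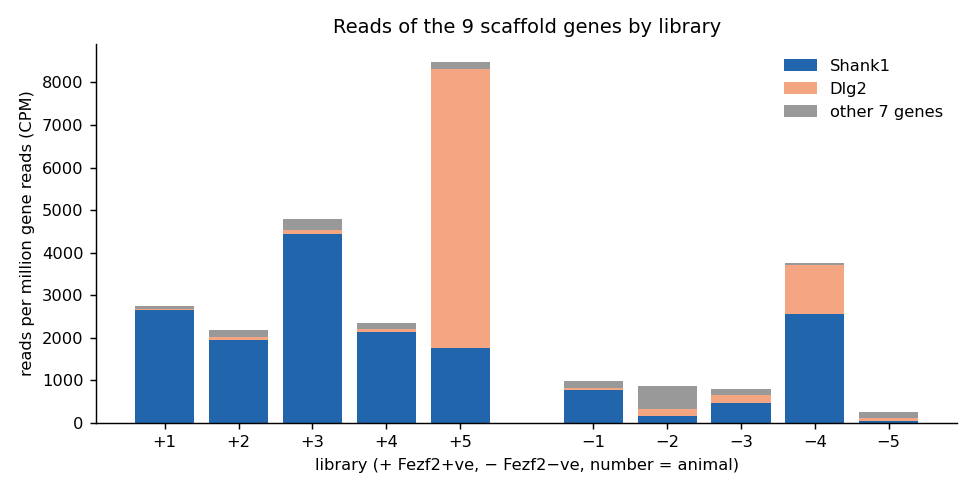
Reads of the 9 scaffold genes in each library, as CPM on a linear axis that starts at 0, with *Shank1*, *Dlg2* and the other 7 genes stacked. *Shank1* made up 89.7 to 96.6% of the scaffold reads in *Fezf2+ve* libraries 1 to 4 and 20.7% in library 5, where *Dlg2* had 1333 reads. In *Fezf2−ve* libraries 1 to 5 its share was 79.3, 19.2, 59.4, 67.7 and 15.8%.

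Gene length went with detection in these libraries. Of the genes that span over 300 kb, 94.4% were tested, and so were *Shank2*, *Dlg2* and *Dlgap1*. Of the genes between 100 and 300 kb, 75.2% were tested, a group that holds *Dlg1*, which was tested, and *Homer1*, which was not. Of the genes between 30 and 100 kb, 48.4% were tested, and of the 4 scaffold genes in that group *Shank1* alone was. Per kilobase of gene span the mean level over the 10 libraries was 33.7 CPM for *Shank1* and 0.428 CPM for *Dlg2*. Per kilobase of the longest annotated transcript it was 172 CPM for *Shank1*, 108 CPM for *Dlg2*, 12.8 CPM for *Dlgap1*, 8.57 CPM for *Dlg1* and 2.67 CPM for *Shank2*. Without *Fezf2+ve* library 5 the mean of *Dlg2* falls to 27.0 CPM per kilobase of transcript, and without *Fezf2−ve* library 2 that of *Dlg1* falls to 4.04 CPM. By the mean over the 10 libraries *Shank1* was highest on both length scales. Library by library it was highest in all 10 per kilobase of span and in 7 per kilobase of transcript. On the transcript scale *Dlg2* was highest in *Fezf2+ve* library 5, *Dlg1* in *Fezf2−ve* library 2 and *Dlgap1* in *Fezf2−ve* library 5. The distance to *Dlg2* depended on which length was used and on *Fezf2+ve* library 5. The paper reports that a high share of reads fell in introns in both types. It describes its libraries as tag-like with a 3′ bias, and sees no need to account for gene length in them. In such libraries a level per kilobase need not reflect the amount of transcript, so these values are a description only.

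*Shank1* encodes the scaffold of the SHANK family that binds DLGAP proteins by its PDZ domain and HOMER by a proline-rich stretch. In GRCm38 (mm10) it occupies bases 44310253 to 44360572 on the plus strand of chromosome 7. *Fezf2+ve* libraries 1 to 5 had 313, 210, 523, 325 and 357 *Shank1* reads, which is 2650, 1951, 4430, 2144 and 1755 CPM. The *Fezf2−ve* libraries had 130, 15, 79, 539 and 9 reads, which is 774, 168, 468, 2550 and 41.3 CPM. The *Fezf2+ve* libraries were all high, and 4 of the *Fezf2−ve* libraries lay below each of them. *Fezf2−ve* library 4 lay within the *Fezf2+ve* range in CPM. On the TMM scale, in log2(CPM + 1), it was at 12.03, above all *Fezf2+ve* libraries (10.42 to 11.90), so the types overlapped on both.

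The level of *Shank1*, as TMM-normalized log2(CPM + 1), was 11.31 ± 0.60 across the *Fezf2+ve* libraries and 8.54 ± 2.42 across the *Fezf2−ve* ones (SD, n = 5 each). In 4 of 5 animals the *Fezf2+ve* library was the higher one, by 1.96, 3.40, 3.23 and 5.42 on the log2 scale in animals 1, 2, 3 and 5. In animal 4 the difference was -0.13. An exact permutation test of the paired levels gave p = 0.125 (two-sided, n = 5), and with 5 animals it cannot go below 0.0625. Fitted with all genes, the difference between *Fezf2+ve* and *Fezf2−ve* was a log2 fold change of 2.80 ± 1.34 (SE, 95% interval -0.01 to 5.61). The difference did not pass the threshold of 0.1, with an adjusted p of 0.998 from the quasi-likelihood test of edgeR, blocked by animal and adjusted by Benjamini-Hochberg over all tested genes. DESeq2 with the same block gave a log2 fold change of 2.77 ± 1.00 (SE) and an adjusted p of 0.0981, which passed it narrowly. DESeq2 left many tested genes without an adjusted p, so its adjustment covered fewer genes than that of edgeR. No other setting tried called *Shank1*, and without the animal block edgeR gave a log2 fold change of 1.33 (adjusted p = 0.645). Fewer cells with *Shank1* RNA and less of it per cell cannot be told apart in these bulk libraries.

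With the animal as a block, edgeR called 0 of the 5 tested scaffold genes and 0 of all 7409 genes (0%). An unadjusted p under 0.05 was found for 288 of these genes (3.89%), and DESeq2 with the block called 98 (1.32%). The 1.32% is a share of all 7409 genes, and those that DESeq2 left without an adjusted p could not be called. *Shank1* was the scaffold gene higher in *Fezf2+ve* libraries in at least 4 of 5 animals, which 10.5% of all tested genes also were. None of the 5 separated the types without overlap, as 1.46% of the tested genes did. The number of genes that edgeR called without the block was 279 (3.77%), and it depended on options of the fit, with 0 to 646 genes over 20 combinations of them. None of the scaffold genes was among the 279.

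**Figure D2:**
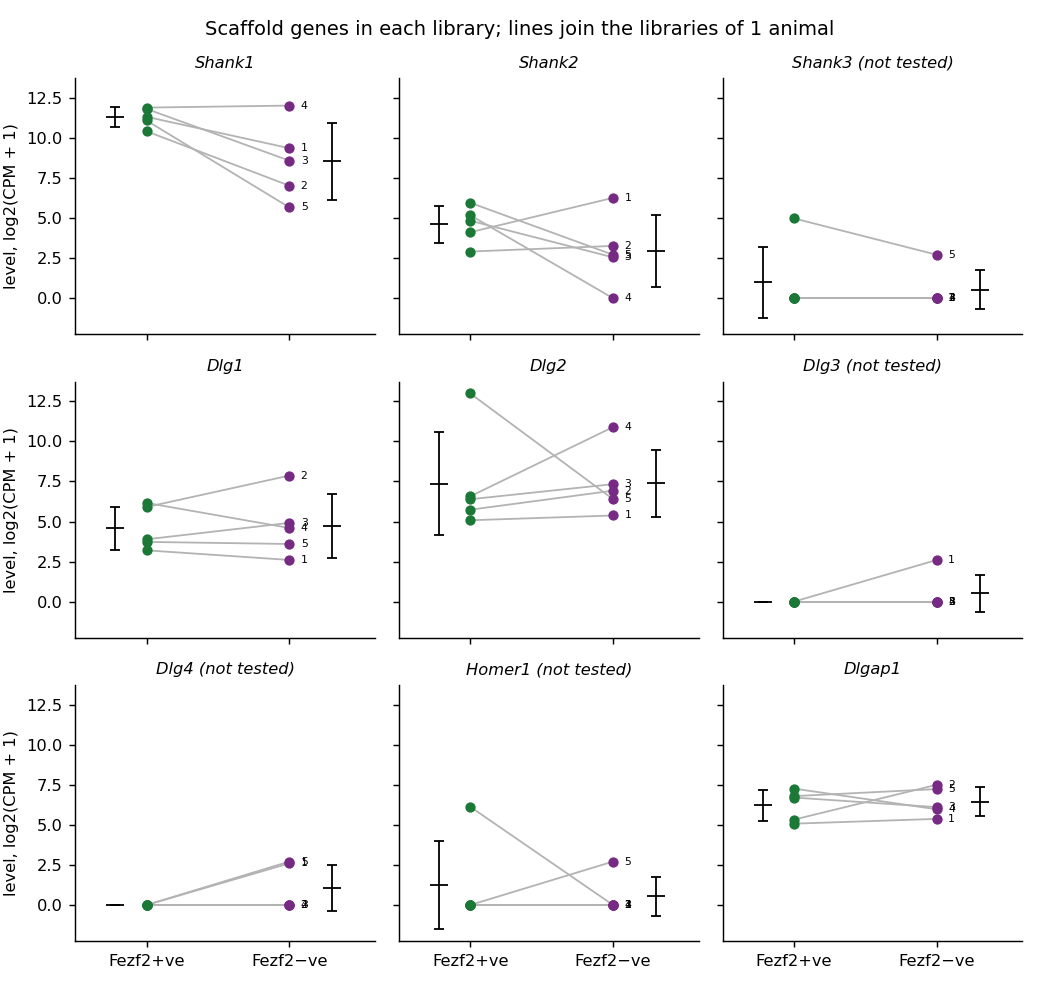
Level of each scaffold gene, log2(CPM + 1), in *Fezf2+ve* (green) and *Fezf2−ve* (purple) libraries, with a line for each numbered animal and the mean ± SD of each type in black. *Shank1* is above 10 in all *Fezf2+ve* libraries and spread from 5.67 to 12.03 in *Fezf2−ve* libraries.

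No single library held most of the *Shank1* reads. The library with the most, *Fezf2−ve* library 4, held 21.6% of them. Among the 1418 tested genes with at least 100 reads, the library with the most reads held a median of 76.7% of a gene's reads, and 98.7% of these genes were at or above the share of *Shank1*. *Dlgap1* had 20.1% in its highest library, whereas *Dlg2* had 79.3%.

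The study designed a pair of qPCR primers for *Shank1*, and they are shown because they place that assay in the gene. Both are written 5′ to 3′ in lower case, and each matched over its whole length.
*Shank1* forward: atcagtgcaagtgagagtcctg
*Shank1* reverse: gaaagaaggccggtcataact
Both matched 4 of the 6 annotated *Shank1* transcripts, on chromosome 7 of GRCm38 at 44344937 to 44344958 and at 44350981 to 44351001. In the longest transcript, of 9826 bases, they lie in exons 22 and 23 of 25 and bound a product of 135 bases. The reverse site ends 7084 bases before the end of that transcript. By its own paired DESeq2 test the paper reports *Shank1* as significantly increased in *Fezf2+ve* IT-PNs, and it assayed the gene by qPCR. The qPCR values are not used here.

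The other SHANK genes had few reads. *Shank2* encodes a SHANK scaffold of the same domain order, and lies on chromosome 7 from 144001928 to 144424494. It had 2, 1, 4, 3 and 10 reads in *Fezf2+ve* libraries 1 to 5 and 15, 1, 1, 0 and 1 in *Fezf2−ve* libraries 1 to 5. Its reads were low in both types, with the most in *Fezf2−ve* library 1, and the types overlapped. The log2 fold change was 1.43 ± 1.44 (SE, edgeR with the block, adjusted p = 0.998), and 3 of 5 animals were higher in *Fezf2+ve*. The fold change was 2.42 without animal 1, 0.77 without animal 4, 0.72 without animal 5 and 0.59 without the block. *Shank3*, the SHANK gene deleted in Phelan-McDermid syndrome, lies on chromosome 15 from 89499623 to 89560261. It had 5 reads in *Fezf2+ve* library 5, 1 in *Fezf2−ve* library 5 and 0 in the other 8. It was above the floor of 3 reads in 1 library, and it did not pass the filter to be tested.

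The DLG genes encode membrane-associated guanylate kinases. *Dlg2* encodes PSD-93 and is among the longest genes of the mouse, from 90476672 to 92449247 on chromosome 7. It had 4, 8, 12, 8 and 1333 reads in *Fezf2+ve* libraries 1 to 5. The *Fezf2−ve* libraries had 8, 14, 33, 246 and 15 *Dlg2* reads. *Fezf2+ve* library 5 stood far above all others and *Fezf2−ve* library 4 was next, while the other 8 libraries had between 4 and 33 reads.

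The level of *Dlg2* was 7.35 ± 3.21 across the *Fezf2+ve* libraries and 7.39 ± 2.09 across the *Fezf2−ve* ones (SD, n = 5 each). The *Fezf2−ve* library was the higher one in 4 of 5 animals, and in animal 5 the *Fezf2+ve* library exceeded it by 6.60 on the log2 scale. The log2 fold change was -0.67 ± 1.50 (SE, edgeR with the block, adjusted p = 0.998). Its sign rested on the setting: it was 1.87 without the block, 0.23 without animal 4 and -1.69 without animal 5. The 79.3% of *Dlg2* reads in 1 library was near the median of 76.7% among tested genes with at least 100 reads.

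*Dlg1*, which encodes SAP97, lies on chromosome 16 from 31663443 to 31875129. Its reads were 1, 9, 2, 6 and 2 in the *Fezf2+ve* and 1, 27, 6, 3 and 2 in the *Fezf2−ve* libraries. *Fezf2−ve* library 2 was the highest, and the types overlapped. The log2 fold change of *Dlg1* was -0.23 ± 1.12 (SE, edgeR with the block, adjusted p = 0.998). It was 0.29 without animal 2 and -0.86 without the block. *Dlg4*, which encodes PSD-95, lies on chromosome 11 from 70016942 to 70047522. It had 1 read in each of *Fezf2−ve* libraries 1 and 5 and 0 in the other 8. *Dlg3*, which encodes SAP102 and lies on the X chromosome from 100767722 to 100818410, had 1 read, in *Fezf2−ve* library 1. Neither was detectable above the floor of 3 reads in any library.

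*Dlgap1* encodes GKAP, the link between the DLG and SHANK layers, and lies on chromosome 17 from 69969073 to 70821413. It had 4, 6, 15, 13 and 18 reads in the *Fezf2+ve* and 8, 21, 14, 8 and 27 in the *Fezf2−ve* libraries. All libraries had *Dlgap1* reads and the types overlapped over most of their range. The level was 6.24 ± 0.97 across the *Fezf2+ve* libraries and 6.44 ± 0.90 across the *Fezf2−ve* ones (SD, n = 5 each). The log2 fold change was -0.18 ± 1.03 (SE, 95% interval -2.32 to 1.96, edgeR with the block, adjusted p = 0.998), and without animal 2 it was 0.26. *Homer1* encodes the adaptor that links SHANK to metabotropic glutamate receptors, and lies on chromosome 13 from 93299635 to 93405129. It had 10 reads in *Fezf2+ve* library 3, 1 in *Fezf2−ve* library 5 and 0 in the other 8.

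**Figure D3:**
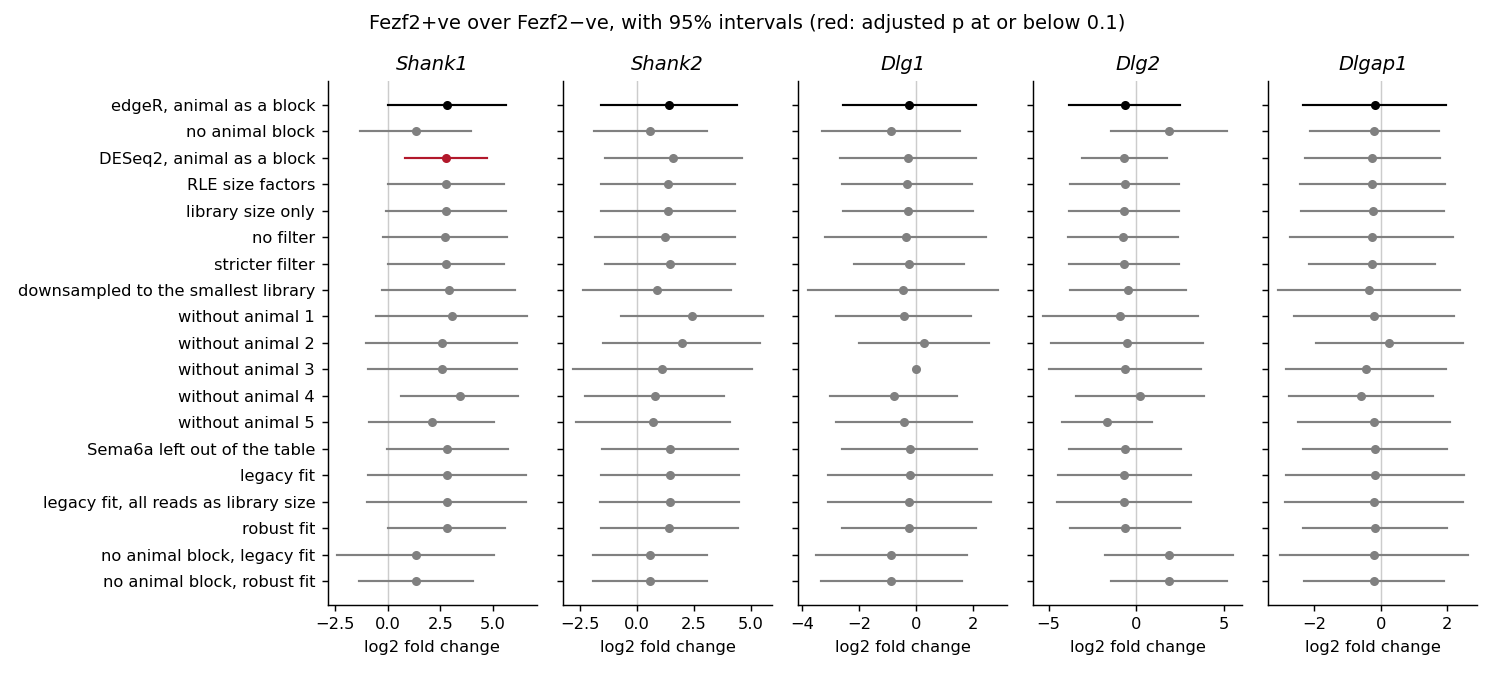
Log2 fold change of the 5 tested scaffold genes, *Fezf2+ve* over *Fezf2−ve*, with 95% intervals, in each setting tried; red marks an adjusted p at or below 0.1. *Shank1* lies between 1.33 and 3.42 and is red in DESeq2 with the animal as a block alone, while *Dlg2* moves from -1.69 to 1.87; no interval could be calculated for *Dlg1* without animal 3.

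Other genes of the postsynaptic density were taken from a list of 79 symbols, of which 75 were in the count table and 47 were tested. Of the 47, 22 (46.8%) had a higher fitted level in *Fezf2+ve* and 25 in *Fezf2−ve* libraries, beside 45.7% of all tested genes higher in *Fezf2+ve*. Counted by animals, 11 of the 47 (23.4%) were higher in *Fezf2+ve* in at least 4 of 5, beside 10.5% of all tested genes. In the other direction it was 7 (14.9%), beside 13.8%. Of the 47, edgeR with the block called 0, and DESeq2 with the block called 2, beside 1.32% of all tested genes. Both DESeq2 values count genes without an adjusted p as not called, with *Map1a*, *Adgrb2* and *Camk2b* among them. The median log2 fold change was -0.33, beside -0.16 over all tested genes. With other size factors (RLE) and with library size only the list's median stayed negative, at -0.42 and -0.37. It was positive without the block (0.02), without the filter (0.16), without animal 1 (0.04) and with libraries downsampled to the smallest (0.10), and the genes tested differ in the last 3. An unadjusted p under 0.05 was found for 3 of the 47 (6.38%), beside 3.89% of all tested genes.

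*Akap5* encodes an anchor that holds protein kinase A and calcineurin at the postsynaptic membrane. It had 269, 165, 384, 91 and 237 reads in *Fezf2+ve* libraries 1 to 5. It had 55, 34, 109, 21 and 8 in the *Fezf2−ve* libraries. *Akap5* was higher in *Fezf2+ve* in 5 of 5 animals, and on the normalized scale every *Fezf2+ve* library was above every *Fezf2−ve* library.

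The level of *Akap5* was 10.63 ± 0.60 across the *Fezf2+ve* libraries and 7.65 ± 1.34 across the *Fezf2−ve* ones (SD, n = 5 each). Its log2 fold change was 2.92 ± 1.13 (SE). The adjusted p was 0.998 in edgeR with the block, 0.201 without it and 0.0581 in DESeq2 with the block. *Akap5* and *Shank1* were both high in the *Fezf2+ve* libraries, but they parted in *Fezf2−ve* library 4, which had 539 *Shank1* and 21 *Akap5* reads.

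*Rapgef4* encodes EPAC2, an exchange factor for Rap that cAMP activates. It had 3, 498, 6, 2 and 9 reads in the *Fezf2+ve* and 4, 1, 1, 0 and 0 in the *Fezf2−ve* libraries, so that 498 of its 524 reads came from 1 library. Its log2 fold change was 4.17 ± 1.71 (SE), with an adjusted p of 0.998 in edgeR with the block, 0.0931 without it and 0.0814 in DESeq2 with the block. *Map1a*, for a microtubule-associated protein that binds PSD-95, had 0 to 12 reads per library, and its fitted log2 value was 2.97 ± 1.52 (SE, edgeR with the block, adjusted p = 0.998).

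In the other direction, *Cask* encodes a membrane-associated guanylate kinase found on both sides of the synapse. It had 12, 10, 7, 4 and 6 reads in the *Fezf2+ve* and 40, 16, 99, 20 and 2901 in the *Fezf2−ve* libraries. *Fezf2−ve* library 5 held 93.1% of them, and the types did not overlap on the normalized scale. Its log2 fold change was -2.59 ± 1.39 (SE), and its adjusted p was 0.998 in edgeR with the block, 0.0931 without it and 0.2335 in DESeq2 with the block.

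*Adgrb2*, for an adhesion G protein-coupled receptor, had no read in any *Fezf2+ve* library and 2, 2, 33, 0 and 1 in the *Fezf2−ve* ones, with 86.8% of them in library 3 (edgeR with the block, adjusted p = 0.998). *Camk2b*, for a subunit of the kinase CaMKII, had 1 to 25 reads per library, and its fitted log2 value was -1.62 (edgeR with the block, adjusted p = 0.998). *Akap5*, *Rapgef4* and *Cask* were the 3 tested genes of the list whose types did not overlap on the TMM scale, which 1.46% of all tested genes share on that scale. In CPM without TMM the types overlapped for all 3, and the separation of *Rapgef4* rests on 2 and 3 reads beside 4.

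**Figure D4:**
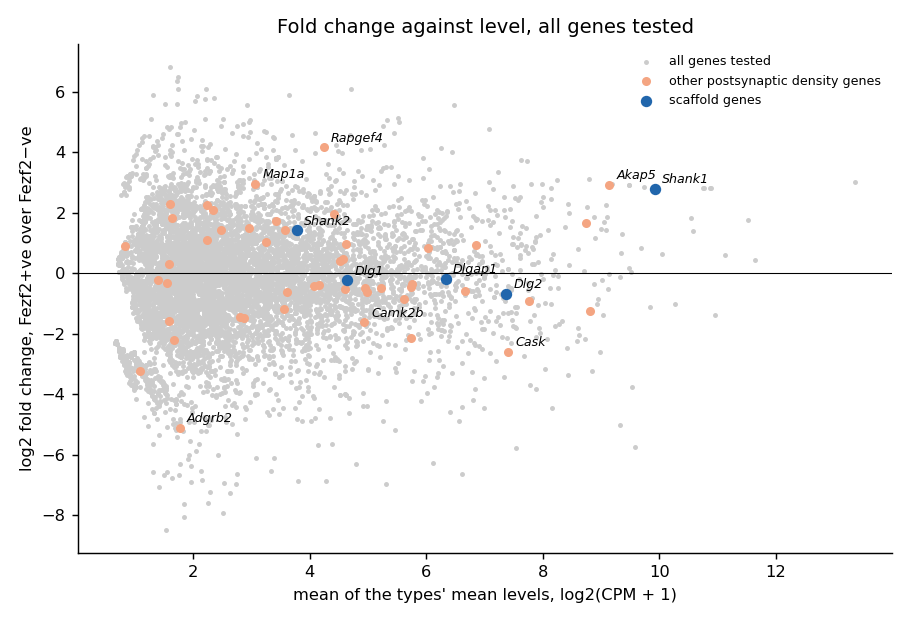
Log2 fold change, *Fezf2+ve* over *Fezf2−ve*, against the mean of the types' levels in log2(CPM + 1), for all 7409 tested genes (grey), the 47 other postsynaptic density genes (orange) and the 5 scaffold genes (blue). *Shank1* and *Akap5* lie at 2.80 and 2.92 among the genes with high levels.

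The 3 tested genes whose levels followed *Shank1* most closely over the 10 libraries, out of 2426 with a read in at least 8 of them, were *Kcnma1*, *Adgrd1* and *Prnp*. Pearson's r was 0.904, 0.892 and 0.858, and Spearman's rho was 0.939, 0.733 and 0.620, given as a description of the closest of many genes. *Kcnma1*, for the BK potassium channel, had 2 to 45 reads per library. Its reads in *Fezf2−ve* libraries 1 to 5 were 11, 2, 4, 30 and 2, with the most in library 4 as for *Shank1*.

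The cell types of the libraries were checked with lists of marker genes. Pan-neuronal markers were found in every library, with a summed level of 167 to 4667 CPM in *Fezf2+ve* and 161 to 6022 CPM in *Fezf2−ve* libraries, and *Rbfox1* held 81.4% of their reads. Their sum was higher in *Fezf2+ve* in 3 of 5 animals. Gene by gene, 8 of the 9 tested neuronal markers had a higher fitted level in *Fezf2+ve*, as *Shank1* did, with a median log2 fold change of 1.29 (-0.16 over all tested genes), and *Nefl* had 0 reads. The part of neuronal RNA in the *Shank1* values was not tested. Of the cortical glutamatergic markers, *Slc17a7* had 11 reads in all libraries, *Tbr1* had 0, and *Camk2a* held 92.0% of the list's reads, whose sum was 0 to 279 CPM in *Fezf2+ve* and 4.59 to 3266 CPM in *Fezf2−ve* libraries. *Fezf2* itself had 1 read, and *Bcl11b* had 1, so the layer 5 label could not be checked by them. *Rorb* held 79.4% of the reads on layer 5 markers, which summed to 83.6 to 516 CPM in *Fezf2+ve* and 37.9 to 3888 CPM in *Fezf2−ve* libraries. Of the 6 tested layer 5 markers, 5 had a higher fitted level in *Fezf2+ve*, with a median log2 fold change of 0.21. Of the 3 tested glutamatergic markers 1 did, with a median of -0.63. Of the 10 interneuron markers, 6 had 0 reads and *Adarb2* held 99.3% of the reads, with a list sum of 33.9 to 1770 CPM in *Fezf2+ve* and 66.2 to 5268 CPM in *Fezf2−ve* libraries. *Adarb2* was the 1 interneuron marker tested, and its fitted level was higher in *Fezf2−ve*.

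Microglial markers moved with the type. Their summed level was 72.6 to 279 CPM in *Fezf2+ve* and 2110 to 7439 CPM in *Fezf2−ve* libraries, and 15 of 15 markers had a higher fitted level in *Fezf2−ve*, with *Ctss* the most abundant. None of the 15 was at 0 in all libraries. The part of microglial RNA in the *Shank1* values was not tested. Haemoglobin and other red blood cell markers summed to 0 to 1507 CPM in *Fezf2+ve* and 9.19 to 7093 CPM in *Fezf2−ve* libraries, and their sum was higher in *Fezf2−ve* in 5 of 5 animals. *Hbb-bs* was the most abundant, with 410 reads. The haemoglobin names form 3 pairs with the same reads in every library, *Hba-a1* with *Hba-a2* (249 reads), *Hbb-bs* with *Hbb-b1* (410) and *Hbb-bt* with *Hbb-b2* (368). These sums count such reads under both names. With each pair counted once they were 0 to 753.4 CPM in *Fezf2+ve* and 4.59 to 3549 CPM in *Fezf2−ve* libraries.

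The sums of other glial markers overlapped between the types, as those of the pan-neuronal markers did. Astrocyte markers summed to 492 to 7739 CPM in *Fezf2+ve* and 115 to 3809 CPM in *Fezf2−ve* libraries, with *Slc1a2* the most abundant and *Gfap* at 0. Of the 8 tested, 5 had a higher fitted level in *Fezf2+ve*. The median log2 fold change of the astrocyte markers was 1.46, beside 1.29 for the pan-neuronal markers. Oligodendrocyte precursor markers, led by *Vcan*, summed to 85.8 to 4696 CPM in *Fezf2+ve* and 142 to 1668 CPM in *Fezf2−ve* libraries. Of these 6 markers, 4 had a higher fitted level in *Fezf2+ve*, with a median log2 fold change of 0.74. Endothelial and mural markers, led by *Flt1*, stayed between 8.46 and 111.5 CPM, with 2 of the 4 tested higher in *Fezf2+ve*.

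**Figure D5:**
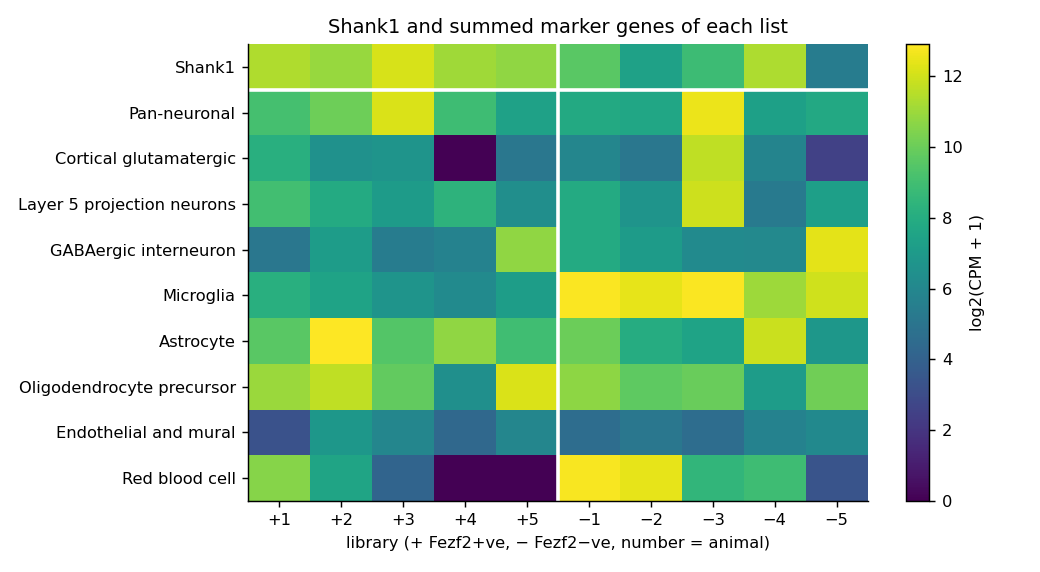
*Shank1* (top line) and the summed level of each of 9 lists of marker genes, as log2(CPM + 1) in colour, in the 5 *Fezf2+ve* and 5 *Fezf2−ve* libraries. Microglial markers are at 2110 CPM or more in each *Fezf2−ve* library and at 279 CPM or less in each *Fezf2+ve* library.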

How the data were processed

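Read counts were used as the authors deposited them, not normalized. They had split the reads by barcode, trimmed them, aligned them with TopHat2 2.1.1 (mm10) and counted them on RefFlat genes with multiCov of BEDTools 2.26.0. A read can count on several overlapping genes, and the use of strand and of molecular identifiers is not given in the sources used here. Of the genes that overlap a scaffold gene, those in the table had at most 1 read each. The deposited tables of spike-in counts and of the authors' own DESeq2 comparison (fold changes and p-values) were not used here.

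The 7409 genes that reached 10 CPM in 2 or more libraries were scaled by TMM and fitted in edgeR 4.0.16 (R 4.3.3) by quasi-likelihood, blocked by animal, with Benjamini-Hochberg adjustment and a threshold of 0.1. Each standard error was derived from the fold change and the F value. The design did not fix the method's legacy and robust options, the library size and the dispersion step. The fit as first run used the legacy method and all reads as library size. 40 combinations, 20 with and 20 without the block, were then looked at. The one reported (not legacy, not robust, reads of tested genes as library size) was settled after their results had been seen. It was taken because it is how these counts had been processed in earlier work, which is not that of the paper, where DESeq2 was used. All 20 with the block called 0 genes, and the 20 without it called 0 to 646.

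Same-numbered libraries come from 1 animal, as the sample records and methods state. The deviations of an animal's libraries from their type means correlated at 0.097, -0.007, 0.061, 0.021 and -0.027 across genes in animals 1 to 5.

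Alternatives were no animal block, DESeq2 1.42.0 with the block, other size factors, library size only, other filters, downsampling to 89138 reads, a threshold of 0.05 and leaving out each animal. 6 were added after seeing the data: *Sema6a* left out, legacy and robust fits with and without the block, and the fit as first run. Members, lists and tests were chosen with earlier results of these data known. Named genes are all 9 scaffold genes, the 3 list genes with the smallest unadjusted p in each direction, the most abundant gene of each marker list (1 list is not reported here) and the 3 genes most correlated with the scaffold gene of most reads; *Slc17a7*, *Tbr1*, *Fezf2*, *Bcl11b*, *Nefl*, *Gfap* and the paired haemoglobin genes were named after their values were seen. The overlap in CPM without TMM and the blood sums with each pair counted once, and the shares and levels per length in or without 1 library, were also added then. Positions are those of GENCODE on GRCm38, counted from 1. Python 3.11.15, numpy 2.4.6, pandas 2.3.3, scipy 1.17.1 and matplotlib 3.10.9 were used for the rest.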

Additional observations from a re-analysis of the deposited data

Results flagged for a closer look

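In 28 sets of 5 libraries, the level of each tested scaffold gene and the summed level of each of 9 marker lists in either type, 3 had a library far from the other 4. Chance alone gives about 1 in 20. All gaps and ranges were measured in log2(CPM + 1), although the marker sums below are given in CPM. The *Dlg2* level of *Fezf2+ve* library 5 was the first, where the gap to the nearest library was 0.811 of the whole range, beside a critical value of 0.71 for 5 samples. That library had 1333 *Dlg2* reads and the other *Fezf2+ve* libraries had 4 to 12. The summed pan-neuronal markers of *Fezf2−ve* library 3 were the second, with a gap of 0.906 of the range, at 6022 CPM. The summed oligodendrocyte precursor markers of *Fezf2−ve* library 4 were the third, with a gap of 0.716 of the range, at 142 CPM, the lowest of its type.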

How the results depend on the processing

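Of 19 alternatives, 16 called 0 genes, as edgeR with the animal as a block did. The exceptions were DESeq2 with the block, which called 98 genes, 1 scaffold gene (*Shank1*) and 2 list genes (*Akap5* and *Rapgef4*), and edgeR without the block, which called 279 genes, 0 scaffold genes and 2 list genes (*Cask* and *Rapgef4*). Added after seeing the data, the legacy fit without the block called 638 genes and 2 list genes (*Adgrb2* and *Rapgef4*), and the robust fit without the block called 0. Over 20 combinations of edgeR options without the block the count was 0 in 6, 40 in 4, 276 to 279 in 6 and 638 or 646 in 4; the cause was not tested. Over the 20 with the block the count was 0, the log2 fold change of *Shank1* was 2.80 to 2.81, its standard error 1.33 to 1.97 and its adjusted p 0.9985 to 0.9998.

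*Shank1* and *Shank2* kept their direction in all 18 refits, at 1.33 to 3.42 and 0.58 to 2.42 (log2), and with each animal left out at 2.09 to 3.42 and 0.72 to 2.42. *Shank1* adjusted p ranged from 0.0981 (DESeq2) to 1. *Dlg2* reversed without the block, to 1.87 in the standard, legacy and robust fits, and without animal 4, to 0.23 (-1.69 to 0.23 with each animal left out). Without animal 2, *Dlg1* reversed to 0.29 (-0.78 to 0.29) and *Dlgap1* to 0.26 (-0.59 to 0.26); the cause was not tested. DESeq2 gave no adjusted p for *Shank2* and *Dlg1*. *Shank3*, *Dlg3*, *Dlg4* and *Homer1* were tested without the filter alone, each with an adjusted p of 1.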
